A study of Mus musculus with 9 samples.

Results

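Isg15, Usp18, Mx1, Mx2, Rsad2, Bst2, Ifi44, Ifi27l2a, Rtp4 and Xaf1 are 10 effector genes of the type I interferon response. They were read in cultured mouse adipose-derived stem cells (ASCs) from 3 fat depots. The rows were found by gene symbol. Each symbol had 1 identifier, so the set holds 10 of the 54532 genes in the table, and all 10 were among the 16526 genes with enough reads to be tested. The genes were selected on their higher level in subcutaneous ASCs, which was seen in earlier results from these same libraries. Their values against subcutaneous ASCs are therefore given as a description, without a test. The comparison between perivascular and abdominal ASCs was tested.

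The cells came from C57BL/6 mice. Sub-ASCs were grown from subcutaneous, Ab-ASCs from abdominal and PVASCs from perivascular adipose tissue, with 3 libraries per group. All were kept in a medium with fetal bovine serum, leukemia inhibitory factor and FGF, and no interferon treatment is named for any group. The age and sex of the mice and the number of mice per culture are not given in the sources used here, and the passage is given only as a range common to the 3 cell types. The p-values below therefore measure the spread between these libraries, which may be technical. In cultures that may hold more than 1 kind of cell, fewer cells of a type and less RNA per cell cannot be told apart.

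Type I interferons bind a receptor made of Ifnar1 and Ifnar2. The kinases Jak1 and Tyk2 then activate transcription factors, among them Stat2, which join Irf9 and bind a DNA element called the interferon-stimulated response element in front of target genes. Interferon gamma signals through another receptor, and its DNA element is the gamma-activated site, so several targets answer to both kinds of interferon. The products of the target genes block steps of virus growth, and some of them limit the response itself.

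The response element is visible in the DNA just before 3 of the genes. Promoter sequences of 300 bases were at hand for 5 of the 10 genes, namely Bst2, Ifi44, Isg15, Rsad2 and Xaf1, from RefSeq on GRCm38.p6. For Bst2, Isg15 and Rsad2 the 150 bases before the RefSeq gene start are printed 5′ to 3′ on the strand of the gene, because they carry the matches. Capitals mark every match to GAAANNGAAA on either strand.
Bst2: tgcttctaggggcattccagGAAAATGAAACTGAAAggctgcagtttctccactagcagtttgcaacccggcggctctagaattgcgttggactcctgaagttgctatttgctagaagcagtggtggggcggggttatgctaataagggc
Isg15: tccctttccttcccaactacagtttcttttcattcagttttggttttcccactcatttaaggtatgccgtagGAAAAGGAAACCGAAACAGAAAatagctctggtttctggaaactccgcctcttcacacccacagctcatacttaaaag
Rsad2: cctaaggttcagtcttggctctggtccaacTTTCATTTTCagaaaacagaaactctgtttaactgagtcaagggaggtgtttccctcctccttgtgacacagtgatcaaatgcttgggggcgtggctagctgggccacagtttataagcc
The Bst2 stretch is chr8:71537473-71537622, the Isg15 stretch is chr4:156200819-156200968 and the Rsad2 stretch is chr12:26456453-26456602, all on the minus strand. The gene positions given below are those of the count table, and for Bst2 and Ifi44 they differ from the RefSeq start.

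In Isg15, 3 overlapping copies of GAAANNGAAA ran from position -78 to -57, counted with the RefSeq gene start at 0. Bst2 held 2 overlapping copies from -130 to -115, and Rsad2 held 1 copy from -120 to -111 on the opposite strand. Among all 32851 promoters of this length, 3.44% held the element on either strand. The gamma-activated site, searched as TTCNNNGAA, was in 8.3% of all promoters and, of the 5, in that of Bst2, where its match began at -136 and overlapped the first response element. The spacing of 1 base, GAAANGAAA, was searched after the sequences had been read. It was found in Isg15 at -128, in Ifi44 at -48, which lies inside the gene as the count table gives it, and in Xaf1 at position 10, and in 3.17% of all promoters. Motif matches describe letters only, and binding was not measured.

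**Figure D1:**
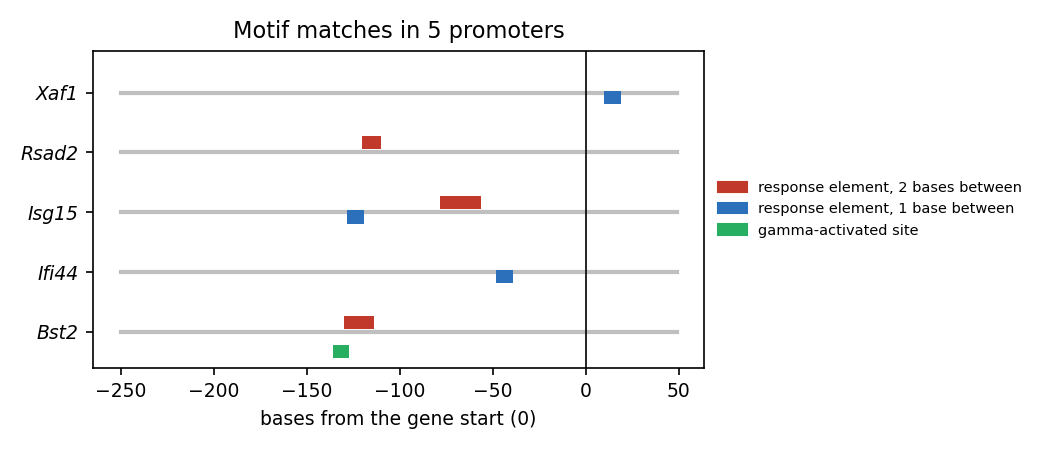
Motif matches in the 5 promoters at hand. The x axis is the distance in bases from the RefSeq gene start, each grey line is 1 promoter of 300 bases, and coloured bars are matches drawn to scale. The response element with 2 bases between lies before the start in Bst2, Isg15 and Rsad2 and ends at -57 or further upstream.

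The libraries held 20524173 to 29881036 reads assigned to genes, so that 3 reads, taken as the detection floor, stood for 0.0916 to 0.161 CPM (reads per 1000000 reads of the TMM-normalised library). Stromal markers were present in all libraries, with a summed level over 9 genes of 23030 to 23840 CPM in Sub-ASCs, 6845 to 7147 in PVASCs and 10980 to 11340 in Ab-ASCs. Single stromal genes differed in direction. Mean Dcn was 8850 CPM in Sub-ASCs and 112 in PVASCs, and mean Ly6a was 2047 in Sub-ASCs and 21.8 in Ab-ASCs. Thy1 and Eng were highest in PVASCs, and Col1a1 was highest in Ab-ASCs. Endothelial markers were present too, at 748.3 to 753.1 CPM over 5 genes in PVASCs against 129.7 to 141.1 in Sub-ASCs and 54.18 to 55.3 in Ab-ASCs. Ab-ASC replicate 1 stood apart from its group: its counts differed from those of the other 2 Ab-ASC libraries by a chi-square per degree of freedom of 29.4 and 18.5, against 2.92 to 8.2 for every other pair of replicates. No pair differed by less than sampling noise, so each library was counted once.

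All 10 effectors were highest in Sub-ASCs. For each of them every Sub-ASC library lay above the 6 others, a pattern shared by 30.7% of the genes tested. Summed over the 10 genes, Sub-ASC libraries held 929.7 to 1029 CPM, PVASC libraries 57.72 to 58.46 CPM and Ab-ASC libraries 43.57 to 54.5 CPM. The fitted log2 fold changes against Sub-ASCs ran from -8.47 to -3.36 in PVASCs, with a median of -4.26 or 19.1-fold lower. In Ab-ASCs they ran from -7.65 to -3.68, with a median of -5.43 or 43.2-fold lower. The medians over all genes tested were -0.01 and -0.03. Over all genes, 35.7% were called lower and 34.7% higher for PVASCs relative to Sub-ASCs, and 38.3% lower and 37.0% higher in Ab-ASCs (edgeR's quasi-likelihood test, adjusted p under 0.05 by Benjamini-Hochberg). Nothing is read from these shares about the effectors, since this contrast chose them. Both comparisons share the Sub-ASC libraries.

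**Figure D2:**
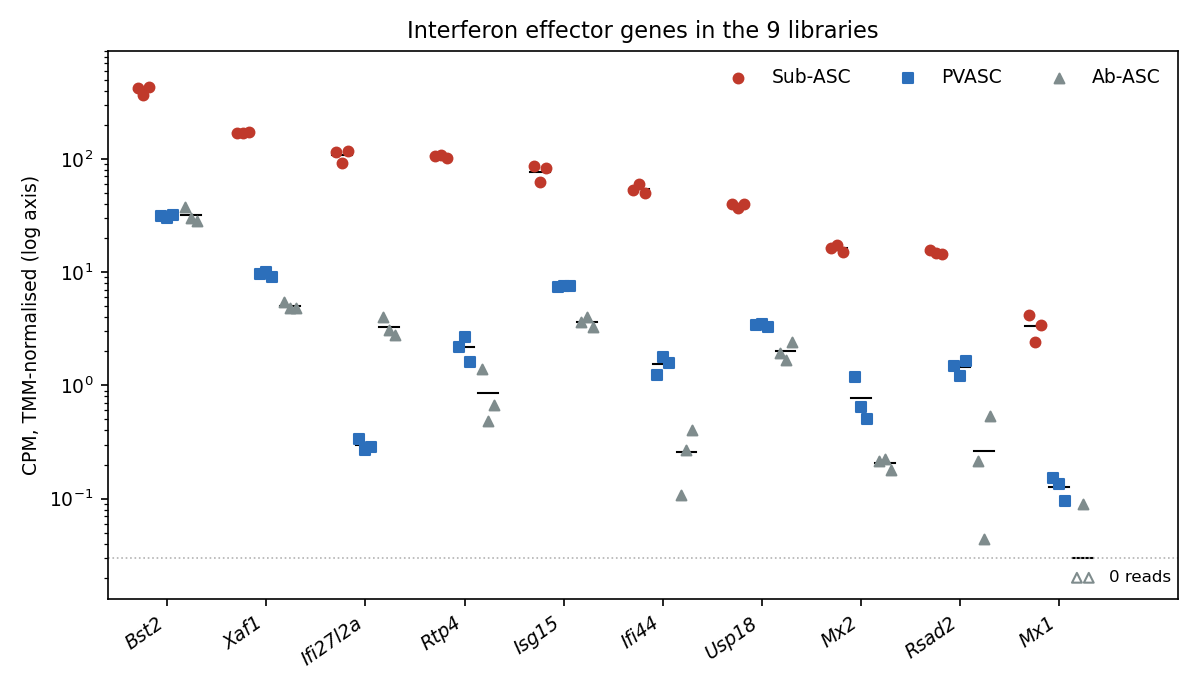
Levels of the 10 effectors in the 9 libraries. The y axis is CPM on a log scale, each symbol is 1 library, black lines are group means, and open triangles below the dotted line are Ab-ASC libraries with 0 reads of Mx1. Sub-ASC libraries lie above all others for every gene, and PVASC libraries lie below Ab-ASC libraries only for Ifi27l2a.

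PVASCs and Ab-ASCs, the depots with low levels, differed from each other. Of the 10 effectors, 7 were higher in PVASCs, 1 was lower and 2 did not pass the test, where 24.7% of all genes tested were called higher and 32.1% lower. The higher genes were Isg15, Usp18, Mx2, Rsad2, Ifi44, Rtp4 and Xaf1, and the lower gene was Ifi27l2a. The median log2 fold change of the 10 was 1.21, and without Mx1, which had few reads, it was that of Isg15, 1.03. The median over all genes was -0.06. Without Ab-ASC replicate 1 the counts were again 7 higher and 1 lower. The libraries of the 2 groups did not overlap for 9 of the 10 genes. PVASCs lay above for 8, a pattern of 28.3% of all genes, and Ab-ASCs lay above for 1, a pattern of 35.6%. The 8 include Mx1, with 12 reads in PVASCs and 2 in Ab-ASCs, which passed the filter on low counts only through Sub-ASCs. It adds no weight to this count.

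**Figure D3:**
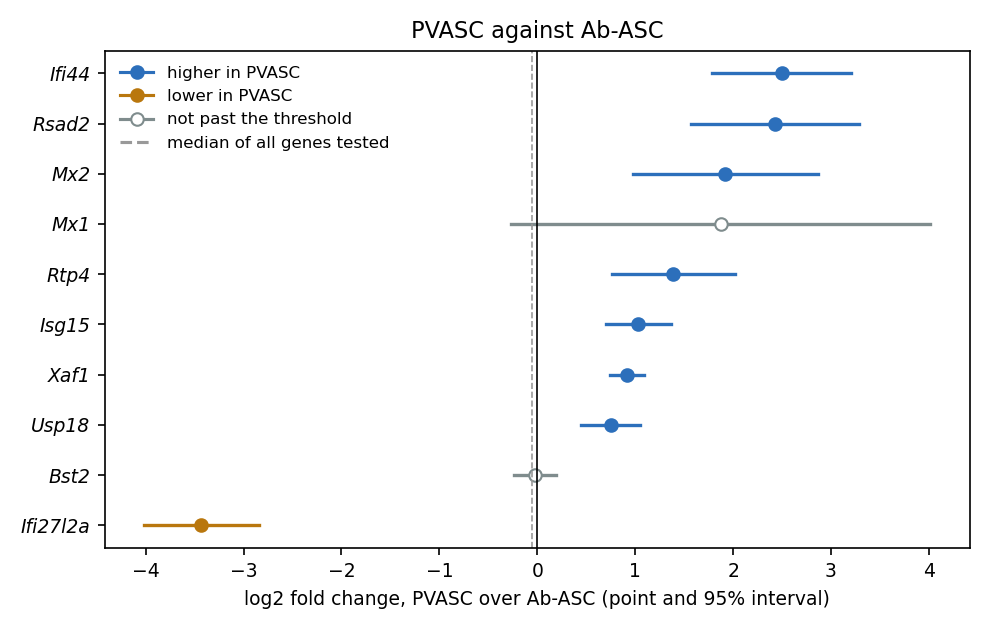
PVASCs against Ab-ASCs for the 10 effectors. The x axis is the log2 fold change, points are edgeR estimates and lines are 95% intervals over 3 libraries per group. The estimates of 7 filled blue points lie above 0, Ifi27l2a lies at -3.43, and the intervals of Bst2 and Mx1 cross 0.

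Isg15 and Usp18 form a pair. Isg15 (ENSMUSG00000035692, chr4:156199424-156200818, minus strand, 2 exons) encodes a small ubiquitin-like protein that is joined to other proteins, and Usp18 (ENSMUSG00000030107, chr6:121245906-121270917, plus strand, up to 11 exons) encodes the protease that takes it off and that also dampens signalling at Ifnar2. Isg15 stood at 85.6, 62.5 and 82.4 CPM in Sub-ASCs, 7.42, 7.49 and 7.50 in PVASCs and 3.65, 4.04 and 3.25 in Ab-ASCs. The 3 groups were separate, and the PVASC libraries were nearly equal (7.47 ± 0.0416, SD, n = 3). Isg15 was higher in PVASCs than in Ab-ASCs by a log2 fold change of 1.03 (SE 0.152, edgeR's quasi-likelihood test, adjusted after Benjamini and Hochberg, adjusted p = 0.000121), and its log2 differences from Sub-ASCs were -3.36 in PVASCs and -4.40 in Ab-ASCs. Usp18 stood at 39.6, 36.4 and 40.2 CPM in Sub-ASCs, 3.42, 3.45 and 3.31 in PVASCs and 1.93, 1.69 and 2.41 in Ab-ASCs. The order was the same as for Isg15, with no overlap. Its rise in PVASCs over Ab-ASCs was 1.69-fold (log2 0.75, SE 0.138, edgeR with Benjamini-Hochberg adjustment, adjusted p = 0.00062), and it was lower than in Sub-ASCs by log2 values of -3.51 and -4.26. A long noncoding gene, Gm44148, shares 124 exon bases with Usp18 on the other strand and had 33 reads in all libraries, against 3351 for Usp18.

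The other genes of the ISG15 cycle were read from a list of pathway genes. Uba7 activates ISG15, Ube2l6 carries it and Herc6 attaches it to its targets. Uba7 had 90.6 ± 3.46 CPM (SD, n = 3) in Sub-ASCs, 5.58 ± 0.188 in PVASCs and 3.29 ± 0.649 in Ab-ASCs, and Herc6 had 37.8 ± 2.90, 2.81 ± 0.404 and 1.45 ± 0.563. Both were higher in PVASCs than in Ab-ASCs, by 0.75 for Uba7 and 0.91 for Herc6 on the log2 scale. Ube2l6 went the other way between these depots, with 13.9 ± 0.426 CPM in PVASCs and 20.2 ± 2.52 in Ab-ASCs (log2 -0.54), below 201 ± 1.76 in Sub-ASCs. Of the 5 genes of this list, 4 were lower than in Sub-ASCs in each of the 2 other depots and Arih1, a ligase with wider duties, was higher in both. Over all genes 35.7% were lower in PVASCs and 38.3% in Ab-ASCs, and the list was chosen with earlier results of these libraries known.

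Mx1 and Mx2 encode dynamin-like GTPases that trap incoming viruses, and in C57BL/6 mice both genes are known to carry inactivating changes. Mx1 (ENSMUSG00000000386, chr16:97447035-97462907, minus strand, up to 15 exons) was the least abundant of the 10. It had 97, 62 and 89 reads in the Sub-ASC libraries, 5, 4 and 3 in the PVASC libraries and 0, 2 and 0 in the Ab-ASC libraries. With so few reads the fitted fold depends on edgeR's prior count, so the ratio of summed reads at equal depth is given: Sub-ASCs over Ab-ASCs 105 (exact 95% counting interval 28.8 to 873) and PVASCs over Ab-ASCs 4.07 (0.906 to 37.5). The PVASC to Ab-ASC difference did not pass the test (edgeR with Benjamini-Hochberg adjustment, adjusted p = 0.123). Mx1 passed the filter on low counts only through its Sub-ASC reads, and it was not tested when PVASCs and Ab-ASCs were fitted alone. With Ab-ASC replicate 2 left out, the adjusted p was 0.0309 by edgeR, but the remaining Ab-ASC libraries held 0 reads and nothing is read from this value. Mx2 (ENSMUSG00000023341, chr16:97535308-97560900, plus strand, up to 14 exons, a polymorphic pseudogene in the table's annotation) stood at 16.2, 17.5 and 15.1 CPM in Sub-ASCs, 1.19, 0.644 and 0.509 in PVASCs and 0.215, 0.222 and 0.178 in Ab-ASCs. No groups overlapped, although PVASC replicate 1 lay well above its 2 companions. Mx2 was 3.79-fold higher in PVASCs than in Ab-ASCs (log2 1.92, SE 0.433, edgeR with Benjamini-Hochberg adjustment, adjusted p = 0.0025). Of the 50-base words in their transcripts, 159 were common to both genes, 3.86% of those of Mx1 and 4.38% of those of Mx2, so some reads could fit either.

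Rsad2 (ENSMUSG00000020641, chr12:26442746-26456452, minus strand, up to 7 exons) encodes viperin, which makes an altered nucleotide that stops viral polymerases. It stood at 15.6, 14.9 and 14.6 CPM in Sub-ASCs, 1.497, 1.22 and 1.65 in PVASCs and 0.215, 0.0444 and 0.535 in Ab-ASCs. The Ab-ASC libraries rested on 4, 1 and 12 reads, and their spread was nearly as large as their mean (0.265 ± 0.249 CPM, SD, n = 3). Rsad2 was higher in PVASCs than in Ab-ASCs by 2.43 on the log2 scale (SE 0.395, edgeR with Benjamini-Hochberg adjustment, adjusted p = 0.000256). Without Ab-ASC replicate 3 this became 3.53. Cmpk2, a nucleotide kinase whose gene lies 12752 bases away on the other strand, had 9.81 ± 1.01 CPM in Sub-ASCs, 1.602 ± 0.362 in PVASCs and 0.671 ± 0.114 in Ab-ASCs. It was higher in PVASCs than in Ab-ASCs (log2 1.25, SE 0.252), as Rsad2 was. On the other side of Rsad2, Rnf144a was lower than in Sub-ASCs by -3.22 in PVASCs and -3.76 in Ab-ASCs on the log2 scale.

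Bst2 (ENSMUSG00000046718, chr8:71534255-71537456, minus strand, up to 5 exons) encodes tetherin, which holds budding virus at the cell surface. It stood at 425, 366 and 432 CPM in Sub-ASCs, 31.5, 30.3 and 32.2 in PVASCs and 37.5, 29.9 and 28.5 in Ab-ASCs. PVASC and Ab-ASC libraries overlapped, and Ab-ASC replicate 1 was the highest of the 6. The log2 difference of PVASCs from Ab-ASCs was -0.03, with a 95% interval of -0.24 to 0.19 (edgeR with Benjamini-Hochberg adjustment, adjusted p = 0.838), and without Ab-ASC replicate 1 it was 0.10. The differences from Sub-ASCs were close in size, -3.70 in PVASCs and -3.68 in Ab-ASCs on the log2 scale.

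Ifi44 and Rtp4 had the lowest fitted log2 fold changes of Ab-ASCs against Sub-ASCs, apart from Mx1, whose fold is too uncertain to rank. Ifi44 (ENSMUSG00000028037, chr3:151730922-151749960, minus strand, up to 8 exons), an interferon-induced gene whose product limits virus growth, stood at 53.5, 59.9 and 50.3 CPM in Sub-ASCs, 1.22, 1.795 and 1.59 in PVASCs and 0.107, 0.267 and 0.401 in Ab-ASCs. The Ab-ASC libraries held 2, 6 and 9 reads and lay below every PVASC library. Ifi44 was 5.64-fold higher in PVASCs than in Ab-ASCs (log2 2.50, SE 0.326, edgeR with Benjamini-Hochberg adjustment, adjusted p = 4.71e-05). Its differences from Sub-ASCs were -5.15 in PVASCs and -7.65 in Ab-ASCs on the log2 scale. Rtp4 (ENSMUSG00000033355, chr16:23520291-23614222, plus strand, up to 4 exons), which helps membrane receptors to the cell surface, stood at 106, 109 and 102 CPM in Sub-ASCs, 2.20, 2.68 and 1.62 in PVASCs and 1.395, 0.489 and 0.668 in Ab-ASCs. The PVASC and Ab-ASC libraries lay close but did not overlap, and Rtp4 was 2.62-fold higher in PVASCs (log2 1.39, SE 0.289, edgeR with Benjamini-Hochberg adjustment, adjusted p = 0.00149). Gm45338, a noncoding gene on the same strand, shares 296 exon bases with Rtp4 and had 168 reads in all, against 8176 for Rtp4.

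Ifi27l2a was the 1 effector lower in PVASCs than in Ab-ASCs. The gene (ENSMUSG00000079017, chr12:103442167-103443680, minus strand, up to 4 exons) encodes a small membrane protein of the ISG12 family. It stood at 115, 91.2 and 118 CPM in Sub-ASCs, 4.02, 3.07 and 2.81 in Ab-ASCs and 0.336, 0.271 and 0.286 in PVASCs. The groups were far apart, and the PVASC values rested on 11, 8 and 9 reads. Ifi27l2a was 10.8-fold lower in PVASCs than in Ab-ASCs (log2 -3.43, SE 0.267, edgeR with Benjamini-Hochberg adjustment, adjusted p = 5.21e-07), and only 0.52% of the genes tested had a lower log2 value. Its difference from Sub-ASCs was the largest of the 10 in PVASCs, -8.47 on the log2 scale, and -5.04 in Ab-ASCs.

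Both gene neighbours of Ifi27l2a belong to the same family. Ifi27, 1928 bases away, was abundant in all depots at 101 ± 10.01 CPM (SD, n = 3) in Sub-ASCs, 66.1 ± 0.795 in PVASCs and 76.9 ± 11.1 in Ab-ASCs. Its order of means was that of Ifi27l2a, with smaller differences: it was lower than in Sub-ASCs by log2 values of -0.61 in PVASCs and -0.40 in Ab-ASCs, both past the test, and it did not pass the test between PVASCs and Ab-ASCs (log2 -0.22, edgeR with Benjamini-Hochberg adjustment, adjusted p = 0.0758). Ifi27l2b, 7218 bases away on the other side, was highest in Ab-ASCs, with 2.64 ± 0.208 CPM against 0.897 ± 0.164 in PVASCs and 0.648 ± 0.176 in Sub-ASCs. Like Ifi27l2a it was lower in PVASCs than in Ab-ASCs (log2 -1.55, SE 0.222). Ifi27l2a and Ifi27l2b had 2 of the 414 words of 50 bases of Ifi27l2a in common.

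Xaf1 (ENSMUSG00000040483, chr11:72301629-72313733, plus strand, up to 6 exons) encodes a partner of Xiap that opposes its block of cell death. It stood at 168, 170 and 171 CPM in Sub-ASCs, 9.56, 9.92 and 8.99 in PVASCs and 5.47, 4.80 and 4.81 in Ab-ASCs. Its libraries were the most even of the 10 within Sub-ASCs, and the 3 groups were separate. Xaf1 was 1.89-fold higher in PVASCs than in Ab-ASCs (log2 0.92, SE 0.08, edgeR with Benjamini-Hochberg adjustment, adjusted p = 1.31e-06), and its log2 differences from Sub-ASCs were -4.16 and -5.08. Xiap itself had 90.0 ± 4.71 CPM (SD, n = 3) in Sub-ASCs and 89.7 ± 1.83 in PVASCs, a log2 difference of -0.01 that did not pass the test (adjusted p = 0.978 by edgeR), and 36.9 ± 11.5 in Ab-ASCs. Of the 4778 words of 50 bases of Xaf1, 1.61% occurred in at least 1 of 159 other genes.

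Levels of different genes were compared per length, as FPKM, which divides the CPM of a gene by its exon length. Bst2 came first in all 3 cell types, with 451 ± 39.9 FPKM (SD, n = 3) in Sub-ASCs, 34.7 ± 1.04 in PVASCs and 35.4 ± 5.36 in Ab-ASCs. It made up 49.96% of the summed FPKM of the 10 genes in Sub-ASCs, 68.95% in PVASCs and 71.22% in Ab-ASCs. In Sub-ASCs the order after it was Ifi27l2a, Isg15, Rtp4, Xaf1, Usp18, Ifi44, Mx2, Rsad2 and Mx1, and no neighbours in that order overlapped. Ifi27l2a was second also in Ab-ASCs, with 14.3% of the sum, and sixth in PVASCs, with 1.28%. In PVASCs the neighbours Usp18 and Rtp4 overlapped, as did Rsad2, Ifi44 and Mx2 in turn. In Ab-ASCs Usp18 and Rtp4 overlapped, as did Rsad2, Mx2, Ifi44 and Mx1 in turn, although Mx2 lay above Mx1 with no overlap.

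The rest of the interferon pathway was read from a list of 87 genes in 8 roles, of which 63 had enough reads to be tested. Between PVASCs and Ab-ASCs, 23 were higher, 18 lower and 22 did not pass the test, with a median log2 fold change of 0.02, beside 24.7% higher and 32.1% lower over all genes. The 10 effectors had 7 higher and 1 lower in the same comparison, and this difference from the list was not tested. Against Sub-ASCs, 56 of the 63 were lower in PVASCs and 56 in Ab-ASCs, with 3 and 6 higher, and the median log2 fold changes were -2.11 and -2.66. Over all genes 35.7% were lower and 34.7% higher in PVASCs, and 38.3% lower and 37.0% higher in Ab-ASCs. The list was chosen with earlier results of these libraries known, so these counts are a description and not independent evidence of its direction.

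Reads of ligand genes were few. Of 20 interferon genes only Ifng, which encodes interferon gamma, had enough reads for the test. Ifng had 64, 49 and 56 reads in the Sub-ASC libraries, 0, 17 and 0 in the PVASC libraries and 0 in each Ab-ASC library. The PVASC reads came from replicate 2 alone. Ifnb1, the first type I interferon of many cells, had 1 read in the 9 libraries together, in a PVASC library, which is under the floor of 3 reads. Ifna5 had 1 read in a PVASC library, and Ifne had 2 reads in a Sub-ASC library and 2 in a PVASC library. The other type I interferon genes on the list had 0 reads, so none reached the floor in any library.

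Of 9 receptor and kinase genes, 8 had enough reads to be tested. Ifnar1 had 167 ± 1.66 CPM (SD, n = 3) in Sub-ASCs, 104 ± 2.01 in PVASCs and 136 ± 5.95 in Ab-ASCs, and Ifnar2 had 134 ± 1.64, 40.4 ± 1.49 and 61.6 ± 5.44. Both were lower in PVASCs than in Ab-ASCs, by log2 values of -0.38 for Ifnar1 and -0.61 for Ifnar2, a direction opposite to that of the 7 higher effectors. The transcription factor genes Stat2 and Irf9 moved as those effectors did. Stat2 had 289 ± 6.72 CPM in Sub-ASCs, 21.2 ± 0.451 in PVASCs and 12.9 ± 0.290 in Ab-ASCs, and Irf9 had 68.6 ± 2.27, 17.7 ± 0.980 and 12.4 ± 1.49. Their rises in PVASCs over Ab-ASCs were 0.72 and 0.52 on the log2 scale (edgeR with Benjamini-Hochberg adjustment, adjusted p = 5.97e-07 and 0.000336). Irf1 was lower in PVASCs than in Ab-ASCs (log2 -0.54), and Irf7, which amplifies interferon production, did not pass the test (log2 -0.26, adjusted p = 0.128 by edgeR).

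Among 27 effectors outside the 10, 12 were higher in PVASCs than in Ab-ASCs, 6 were lower and 9 did not pass the test, beside 24.7% higher and 32.1% lower over all genes. Ifit3b, one of the Ifit proteins that bind foreign RNA, had 1.71, 1.998 and 1.84 CPM in PVASCs and 0.107, 0.133 and 0.178 in Ab-ASCs (log2 3.66, SE 0.261). The Ab-ASC values of Ifit3b rested on 2, 3 and 4 reads, near the floor of 3 reads, so the size of this fold is uncertain. Oas1a, which makes a messenger that activates RNase L, was lower in PVASCs (log2 -1.86, SE 0.178), the same direction as Ifi27l2a. Its CPM were 1.68, 1.19 and 1.53 in PVASCs and 6.28, 4.13 and 5.70 in Ab-ASCs.

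**Figure D4:**
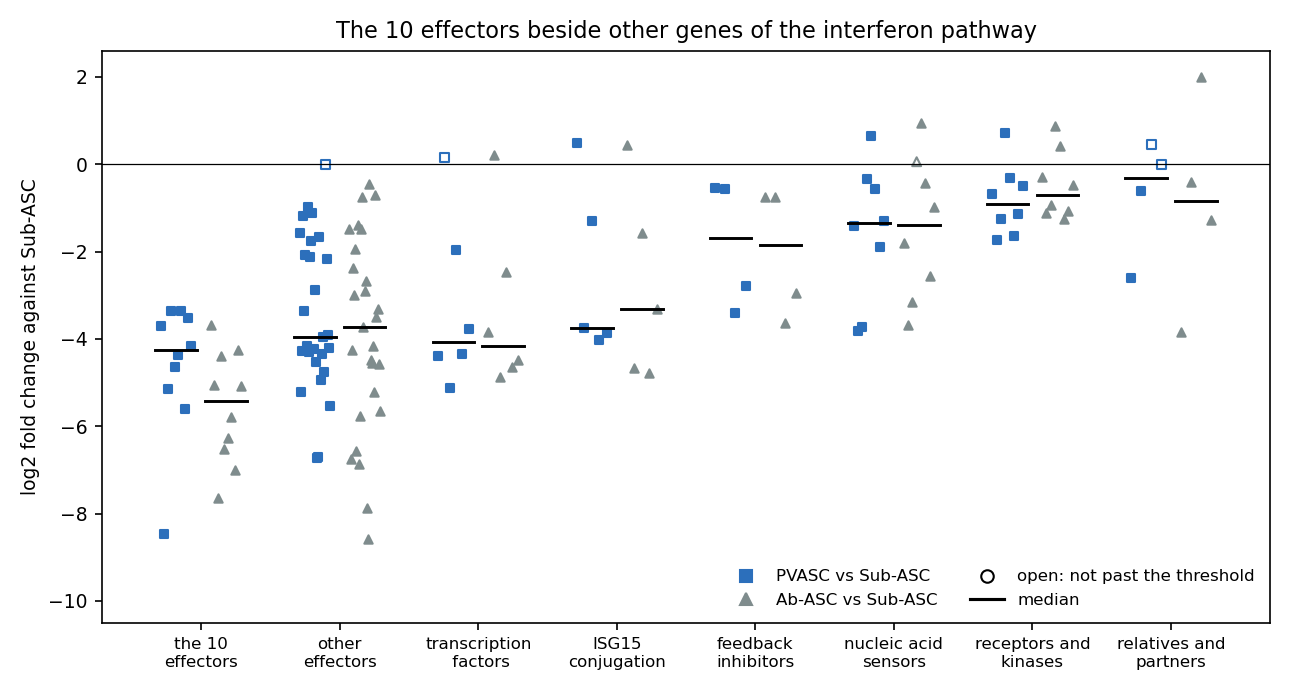
Fitted log2 fold changes against Sub-ASCs for the 10 effectors and for the tested genes of 7 other roles. Each symbol is 1 gene, blue squares are PVASCs, grey triangles are Ab-ASCs, open symbols of the other roles did not pass the test, the effectors are drawn filled without a test, and black lines are medians. The medians of the 10 effectors lie at -4.26 and -5.43, and the receptors and kinases lie nearer to 0, at -0.91 and -0.70.

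Markers of other cells differed between the depots too. Of 10 macrophage and haematopoietic markers, relative to Sub-ASCs 8 were lower and 2 higher in PVASCs, and the same counts held for Ab-ASCs. Over all genes the shares were 35.7% lower and 34.7% higher in PVASCs, and 38.3% and 37.0% in Ab-ASCs. Their summed level was 289.8 to 296.5 CPM in Sub-ASCs, 313.5 to 321.1 in PVASCs and 327.5 to 429.0 in Ab-ASCs, mostly from Lyz2, and none was at 0. Ptprc, which encodes the leukocyte antigen CD45, had 8.93 ± 1.01 CPM (SD, n = 3) in Sub-ASCs, 2.81 ± 0.476 in PVASCs and 1.41 ± 0.249 in Ab-ASCs. Csf1r, which encodes a macrophage growth factor receptor, had its lowest mean in Sub-ASCs, with 17.5 CPM against 22.8 in PVASCs and 34.1 in Ab-ASCs. The 5 markers of plasmacytoid dendritic cells, known as strong producers of type I interferon, summed to 24.73 to 25.74 CPM in Sub-ASCs, 6.515 to 6.872 in PVASCs and 2.487 to 3.755 in Ab-ASCs. Nearly all of this was Irf8, which other cells also express, and Siglech was at 0 in every library.

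The 3 lymphocyte markers summed to 1.067 to 1.459 CPM in Sub-ASCs and to at most 0.1016 CPM in PVASCs and 0.08883 in Ab-ASCs. Among them Cd3e had 7 reads in each Sub-ASC library and 0 elsewhere. Between PVASCs and Ab-ASCs, all 5 endothelial markers were higher in PVASCs, all 4 smooth muscle markers were lower, and of 5 mesothelial markers 1 was higher and 4 were lower, where 24.7% of all genes were higher and 32.1% lower. Of the macrophage and haematopoietic markers Ptprc was higher, and Cd68, Csf1r, Itgam, C1qa and Spi1 were lower. Against Sub-ASCs other lists moved as well. The 3 adipocyte markers summed to 18.32 to 20.77 CPM in Sub-ASCs, 0.336 to 0.4064 in PVASCs and 0.04455 to 0.1777 in Ab-ASCs. Of the 2 that were tested, both were lower than in Sub-ASCs in PVASCs and in Ab-ASCs and 1, Plin1, was higher in PVASCs than in Ab-ASCs. That call rested on 28 reads in PVASCs and 5 in Ab-ASCs, against 1420 in Sub-ASCs. Lep was at 0 in every library. The 4 smooth muscle markers summed to 58.51 to 63.23 CPM in Sub-ASCs, 2643 to 2788 in PVASCs and 4355 to 5413 in Ab-ASCs. The 5 mesothelial markers summed to 1.257 to 2.278, 29.88 to 30.65 and 77.99 to 82.25 CPM in the same order. The part of these cell markers in the levels of the 10 effectors was not tested.

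The genes most like the set were found by distance, taking the pair of fitted log2 fold changes of PVASCs and Ab-ASCs against Sub-ASCs and measuring how far each gene lay from the medians of the 10 effectors. The effectors were selected on their higher level in Sub-ASCs, so this likeness is a description only. The 5 nearest, in order, were Ccdc152, Gbp3, Ptpn5, Pou2af1 and Dll4, at distances of 0.089 to 0.227. Gbp3, a guanylate-binding protein gene induced by interferons, had 346 ± 19.8 CPM (SD, n = 3) in Sub-ASCs, 17.4 ± 1.70 in PVASCs and 7.36 ± 0.670 in Ab-ASCs. Pou2af1 rested on 4 reads in PVASCs and 1 read in Ab-ASCs. In the Ab-ASC libraries Dll4 had 0, 7 and 1 reads and Ccdc152 had 4, 9 and 5, so the distances of these genes are uncertain too.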

How the data were processed

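Bulk RNA sequencing measured 9 libraries of cultured mouse ASCs, 3 per depot, grouped by their sample titles. RNA was extracted with Trizol and libraries were made with a NEBNext Ultra kit. The authors deposited raw read counts per gene. The submitters' processing notes name CASAVA 1.8, Bowtie 0.12.2, featureCounts 1.5.0-p3 and the builds mm8 and mm10, without their roles. Of the 54532 genes, 98.0% had the start, end and strand of GENCODE M21 on GRCm38. Whether counting used strand is not given in the sources used here, so reads from overlapping genes on opposite strands cannot be told apart.

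Low-count genes were removed with filterByExpr. The 3 groups were fitted together with edgeR 4.0.16 (R 4.3.3), TMM normalisation, glmQLFit and glmQLFTest, and p-values were Benjamini-Hochberg adjusted over all 16526 genes at a threshold of 0.05. SE is the log2 fold change divided by the square root of F. CPM used the TMM library sizes, and FPKM also the deposited gene length. Alternatives were DESeq2 1.42.0, other normalisations and filters, 2 groups at a time, a replicate block and each library left out. Intervals of read ratios cover counting error only. Shared words of 50 bases were taken from the GENCODE transcripts.

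The 10 genes, the pathway list and the marker lists were chosen with earlier results of these data known. The text names the 10 genes, some genes of these lists, the nearest protein-coding neighbours of Rsad2 and Ifi27l2a, some genes sharing words, and the 5 genes nearest in pattern. Neighbours of the other effectors are not described, and against Sub-ASCs they moved in mixed directions. In PVASCs Bace2 beside Mx1 was lower (log2 -2.06) and Adgrl4 beside Ifi44 was higher (log2 1.68). Columns of samples outside the series numbered 0. The depth was 20524173 to 29881036 reads per library.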

Additional observations from a re-analysis of the deposited data

How the results depend on the processing

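Of 627 alternative values for 40 results, 597 were counted as unchanged. Tested values had to keep their direction and their side of the threshold. Values without a test had to keep their direction and stay within the replicate spread. Counts of calls had only to stay within a fixed ratio of the main count, so they say little about single genes. A fold of at least log2 1 left 2551 genes called between PVASCs and Ab-ASCs (from 9396), 5328 between PVASCs and Sub-ASCs (from 11628) and 6241 between Ab-ASCs and Sub-ASCs (from 12442), and in the first comparison 13 pathway genes (from 41) and 6 effectors (from 8, losing Usp18 and Xaf1). Requiring 10 reads in every library left 4 of the effectors called, since fewer were tested. Scaling by library totals alone gave a median of -4.10 for the effectors in PVASCs against Sub-ASCs, moved the median of all genes to 0.17 between PVASCs and Ab-ASCs and to 0.15 between PVASCs and Sub-ASCs, and raised the share of calls that were higher in PVASCs than in Ab-ASCs from 43.5% to 70.1%; the effectors stayed at 7 higher and 1 lower. Bst2 between PVASCs and Ab-ASCs turned to 0.202 with library totals, 0.017 with 10 reads in every library and 0.052 with only these groups, ran from -0.106 to 0.099 with 1 library left out, and passed the test in none; the cause was not tested. Leaving out 1 library gave medians of -4.47 to -4.11 for PVASCs and -5.50 to -5.14 for Ab-ASCs against Sub-ASCs, and 8 to 9 effectors called between PVASCs and Ab-ASCs. With the replicate block 8 effectors and 44 pathway genes were called between PVASCs and Ab-ASCs, and no effector call changed. Same-numbered libraries of these groups correlated at -0.05 to -0.02, so the number was not taken as a pairing. For PVASCs and Sub-ASCs 6 of 6 libraries correlated best with their own number, but these correlations were only 0.0146 to 0.0268. For Ab-ASCs and Sub-ASCs 3 of 6 did, and same-numbered libraries correlated at -0.112 to 0.195. Depth limited Mx1, Mx2, Rsad2 and Ifi44 in Ab-ASCs.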
